A study of Rattus norvegicus with 10 samples.

Results

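The expression of 40 cell cycle and DNA replication genes was compared between the livers of control rats and of rats that had undergone a chemical protocol of cirrhosis and liver cancer. The genes were chosen by name, and every non-control array probe whose RefSeq accession matched the symbol of 1 of them was taken. This gave 52 probes of the 41012 on the array, for 36 of the 40 genes. Bub1b, Cdkn3, Mcm5 and Top2a had no probe named here. By role, 9 of the genes act in the passage from G1 to S phase (9 with a probe), 11 in DNA replication and nucleotide supply (10 with a probe), 15 in G2 and mitosis (13 with a probe), and 5 are cyclin-dependent kinase (CDK) inhibitors or, as Cdkn3, a CDK phosphatase (4 with a probe).

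All animals were male Wistar rats labelled as 23 weeks old, and 1 Agilent 4x44K array was hybridised per liver in 1 colour (Cy3). The 5 control rats received vehicle only. The 5 DEN/TAA rats received 1 intraperitoneal dose of diethylnitrosamine (DEN, 200 mg/kg) at 6 weeks of age, which damages DNA in hepatocytes. From 2 weeks later they received thioacetamide (TAA, 200 mg/kg, 2 injections a week, with 1 week of rest after each 3 weeks), a liver toxin that causes fibrosis, over a course that the labels give as 23 weeks. An age of 23 weeks and a course of that length begun at 6 weeks cannot both hold, so the age or the length of treatment is in doubt. The labels give neither the piece of liver that was taken nor its share of nodules.

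In a dividing cell, D-type cyclins with Cdk4 or Cdk6 and then E-type cyclins with Cdk2 inactivate the retinoblastoma protein and free E2F transcription factors, which turn on genes of replication. The Mcm helicase then unwinds DNA, Pcna clamps the polymerases to it, and nucleotide enzymes such as Tyms, Tk1 and ribonucleotide reductase supply its building blocks. In G2 and mitosis, cyclins A and B with Cdk1, the Aurora and Polo kinases and the spindle checkpoint drive chromosome segregation. Hepatocytes of an adult liver rarely divide, but they enter the cycle again after injury.

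More of these genes gave a signal above background in DEN/TAA livers than in control livers, and so did the spots of the array as a whole. A gene was counted as above background on an array where the scanner software called any of its probes well above background. In the control rats 1 to 5, 7, 8, 10, 7 and 4 of the 36 genes were above background, and in the DEN/TAA rats 31, 22, 24, 25 and 22. Every DEN/TAA array thus showed more of the genes than any control array. Counted by probe, 10, 11, 14, 11 and 4 of the 52 were above background in the control rats and 36, 26, 28, 29 and 26 in the DEN/TAA rats.

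The share of all spots above background ran from 16.5% to 32.9% on the control arrays and from 36.1% to 46.6% on the DEN/TAA arrays. The lowest signal called above background, on the scale used below, lay at 5.59 to 7.77 on the control arrays and at 4.56 to 5.35 on the DEN/TAA arrays. The same dim signal was therefore called on a DEN/TAA array and not on a control array, and what part this has in the counts of genes was not tested. In total RNA of whole liver, more cells in cycle and more RNA per cycling cell cannot be told apart.

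**Figure D1:**
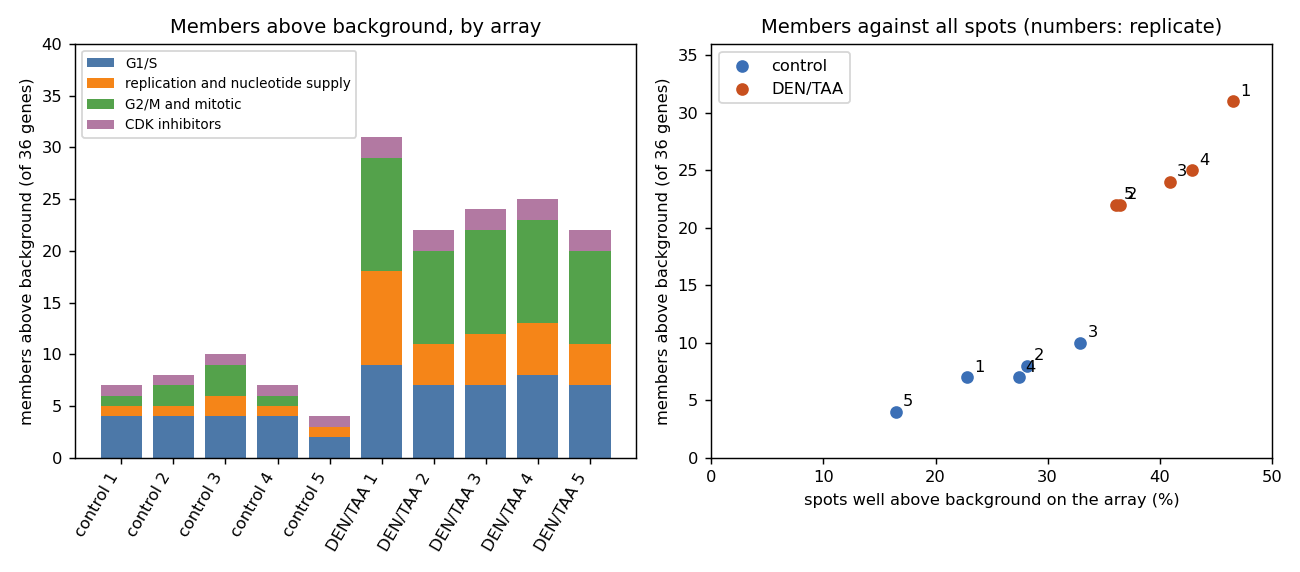
Number of the 36 cell cycle genes with a probe well above background on each array, stacked by role (left), and the same number against the percentage of all spots well above background on that array (right, numbered by replicate). The DEN/TAA arrays show 22 to 31 genes and the control arrays 4 to 10, and the DEN/TAA arrays also have the larger share of spots above background.

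Signals are given below as log2 values scaled to the 75th percentile of each array, and a difference is the DEN/TAA mean minus the control mean of 5 rats each. A gene needed a probe above background on 5 or more of the 10 arrays to be tested, and 18 of the 36 genes passed: 6 of G1/S, 3 of replication, 7 of mitosis and 2 inhibitors. Each of the 18 was above background on every DEN/TAA array, but 8 were so on no control array. Those 8 entered the test through the DEN/TAA arrays alone, so that their signal there had to be the more often detected. In the limma test over all genes (adjusted p under 0.05), 11 of the 18 were higher in DEN/TAA livers, beside 39.2% of the 6855 genes tested. None of the 18 was lower by limma, adjusted or at an unadjusted p under 0.05, beside 16.3% of all genes. Without control 1 and control 5, the 2 arrays with the fewest spots above background, 13 were called higher, beside 37.9% of all genes.

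The background share depended on detection in the controls. Among genes above background on no control array, 83.3% of all 683 tested were called higher, and 7 of the 8 cell cycle genes. On 1 or 2 control arrays it was 43.1% of 860 genes and 2 of 3 cell cycle genes (Tyms and Cdk1). On 3 or more control arrays it was 32.9% of 5312 genes and 2 of 7 cell cycle genes (Ccnd1 and Pcna). Within each of these classes the count of cell cycle genes lay near the share of all genes.

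**Figure D2:**
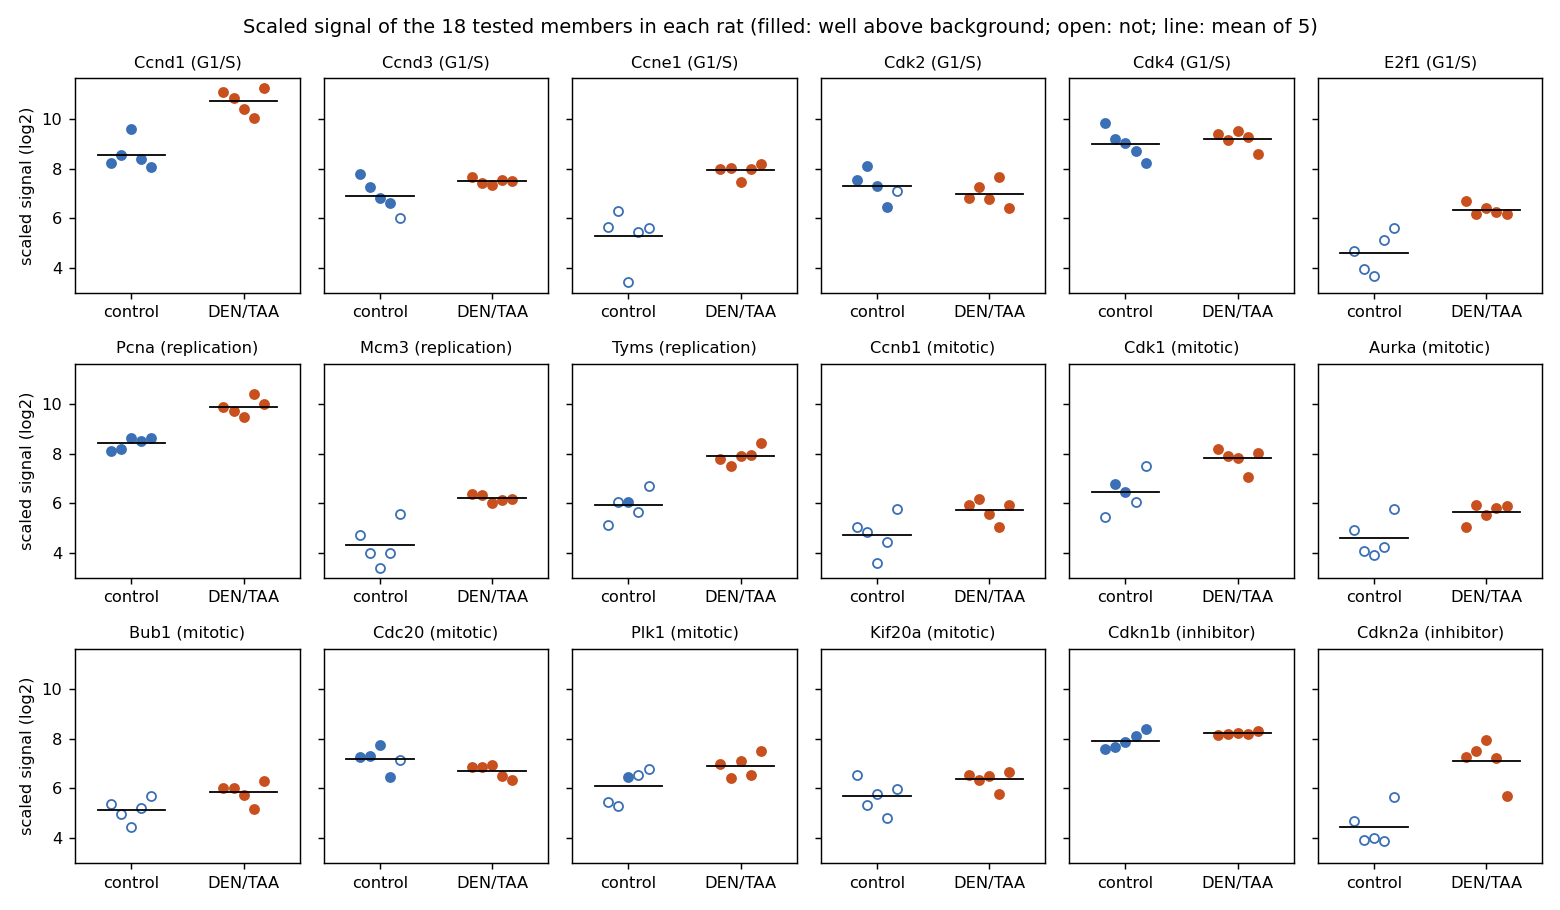
Scaled signal (log2) of the 18 tested cell cycle genes in each rat, replicates 1 to 5 from left to right within a group; filled points are well above background, open points are not, and the line is the mean of 5 rats. Ccnd1 and Pcna are filled in all 10 rats with no overlap between the groups, whereas Ccne1, E2f1, Mcm3 and Cdkn2a are open in every control rat.

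Ccnd1, Ccne1 and E2f1 were called higher among the 6 tested G1/S genes, and Ccnd3, Cdk2 and Cdk4 were not called. Of all genes tested, 39.2% were called higher. Among those above background on no control array, as Ccne1 and E2f1 were, it was 83.3%. Ccnd1 encodes cyclin D1, which activates Cdk4 and Cdk6 in response to growth signals. Its scaled signal was 8.22, 8.54, 9.60, 8.38 and 8.06 in the control rats and 11.10, 10.87, 10.40, 10.04 and 11.25 in the DEN/TAA rats. The groups did not overlap, with control rat 3 the highest of the controls. The difference was 2.17 (SE 0.32, limma adjusted p = 0.000146), or 4.50-fold. The arrays lay on 3 slides, each of which held rats of both groups, and within slides the difference in Ccnd1 was 2.61, 0.62 and 3.03. The smallest of these comes from the slide whose only control was rat 3. A second Ccnd1 probe gave 2.37.

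Ccne1 encodes cyclin E1, the partner of Cdk2 at the start of S phase. It was above background in no control rat, with signals of 5.62, 6.27, 3.41, 5.45 and 5.59, and in every DEN/TAA rat, with 8.0, 8.04, 7.46, 7.97 and 8.18. Because a control level exists only as a bound, it is given as at least 2.61-fold higher as scaled here. This sets the DEN/TAA mean against the control arrays' lowest signals above background. The measured means were 5.27 and 7.93 (limma adjusted p = 0.000328). Within slides the difference ran from 2.07 to 4.31. The bound applies to this scaling alone. The difference was 0.66 in the authors' table and 0.44 with normexp (limma adjusted p = 0.31). A second Ccne1 probe was above background on no array.

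E2f1, the transcription factor that activates replication genes, was above background in no control rat, with signals of 4.67, 3.95, 3.65, 5.11 and 5.61. In the DEN/TAA rats it was at 6.71, 6.18, 6.42, 6.24 and 6.17. These values do not overlap, and the difference was 1.75 (SE 0.33, limma adjusted p = 0.000983), ranging from 0.81 to 2.68 within slides. The largest of these comes from the slide whose only control was rat 3. The smallest comes from the slide whose only DEN/TAA rat was rat 5. The DEN/TAA mean nevertheless lay below the mean of the control floors (by -0.18 on the log2 scale), so no fold is given. Of the 5 DEN/TAA rats 0 lay above the floor of every control array, and 4 lay above the floors of the 3 control arrays with the most spots above background, a choice made after seeing the data. With normexp background correction the difference in E2f1 turned to -0.21. A second E2f1 probe was above background on no array, and its undetected signals differed by -1.47.

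Ccnd3, a second D-type cyclin, was above background in 4 control rats and every DEN/TAA rat. It was at 7.80, 7.27, 6.83, 6.59 and 6.02 in the control rats and at 7.64, 7.43, 7.33, 7.55 and 7.48 in the DEN/TAA rats. The control values spread on both sides of the DEN/TAA values, with a difference of 0.59 (SE 0.28, limma adjusted p = 0.0939). Without control rat 1, its highest control, the difference was 0.81 and passed the test (limma adjusted p = 0.0118).

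The kinases themselves were not called. Cdk2, which works with cyclin E, was above background in 4 control rats, at 7.55, 8.11, 7.31, 6.46 and 7.08 in the control rats and 6.83, 7.27, 6.77, 7.66 and 6.42 in the DEN/TAA rats. The groups overlapped throughout, with a difference of -0.31 (SE 0.31, limma adjusted p = 0.417). Cdk4, the partner of cyclin D1, was above background on all 10 arrays and differed by 0.18 (SE 0.28, limma adjusted p = 0.618), with control values of 8.24 to 9.86 and DEN/TAA values of 8.59 to 9.50. The cyclin D1 signal was thus higher beside a Cdk4 signal whose 2 groups overlapped.

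The other 3 G1/S genes were above background in no control rat and in too few DEN/TAA rats to be tested. Ccnd2, the third D-type cyclin, was above background in DEN/TAA rats 1 to 4, at 6.16, 6.77, 6.73 and 6.07. Cdk6, which can replace Cdk4, was above background in 3 DEN/TAA rats at 5.37 to 5.68, and Ccne2, a second E-type cyclin, in 1 at 5.32. With no filter on dim probes, Ccnd2 (difference 1.46, limma adjusted p = 0.00685) and Cdk6 (0.93, limma adjusted p = 0.0368) were called higher. In that fit 18.8% of all 13832 genes were called higher and 41.9% lower. Both calls set undetected control signals against DEN/TAA signals that were detected only in part.

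Of the genes of replication and nucleotide supply, the 3 tested ones, Pcna, Tyms and Mcm3, were all called higher, with no overlap between the groups. Of all 6855 genes tested, 39.2% were called higher and 1927 were apart without overlap in that direction. Mcm3 was above background on no control array, a class in which 83.3% of all genes were called higher. Pcna, the sliding clamp of the replicative polymerases, was above background in every rat. Its signal was 8.13, 8.21, 8.64, 8.50 and 8.63 in the control rats and 9.89, 9.71, 9.50, 10.40 and 10.01 in the DEN/TAA rats. Each group kept within a range narrower than the gap between their means. The difference was 1.48 (SE 0.19, limma adjusted p = 6.75e-05), or 2.79-fold, with 1.63, 1.31 and 1.45 within slides. A second Pcna probe gave 1.36.

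Tyms, the enzyme that makes thymidylate, was above background in 1 of 5 control rats. It was at 5.10, 6.06, 6.05, 5.66 and 6.68 in the control rats and at 7.78, 7.51, 7.89, 7.94 and 8.42 in the DEN/TAA rats. The lowest DEN/TAA rat lay above the highest control rat, which was control 5 and itself not above background. The difference was 2.00 (SE 0.27, limma adjusted p = 9.75e-05), and 1.87 to 2.25 within slides. With undetected signals raised to the lowest detected signal of their array it was 1.29 (limma adjusted p = 0.00616).

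Mcm3, a subunit of the replicative helicase, was above background in no control rat, at 4.72, 4.00, 3.38, 3.97 and 5.56, and in every DEN/TAA rat, at 6.38, 6.34, 6.00, 6.11 and 6.16. The groups were apart by 1.87 (SE 0.34, limma adjusted p = 0.000666), and by 1.40 to 2.67 within slides. The DEN/TAA mean lay below the mean control floor (-0.33), so no fold is given. Of the 5 DEN/TAA rats 0 lay above the floor of every control array and 2 above the floors of the 3 brighter ones. With normexp its difference turned to -0.20. Its second probe was above background on no array.

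The rest of the replication genes were above background in no control rat. Among the helicase subunits, Mcm7 was above background in 3 DEN/TAA rats, Mcm2 in 2, Mcm6 in 1 and Mcm4 on no array. Rrm1 and Rrm2, the large and small subunits of ribonucleotide reductase, were so in 2 and 1 DEN/TAA rats. Tk1, which salvages thymidine in S phase, was above background in DEN/TAA rats 1, 3 and 4 at 6.14, 5.74 and 5.41. It was called higher with no filter (difference 0.96, limma adjusted p = 0.0344), beside 18.8% of all genes in that fit, again against undetected control signals.

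The DNA before the start of Tyms and Pcna is shown because these 2 replication genes were the best measured. Start sites and sequences are those of RefSeq on the rat assembly GRCr8, written 5′ to 3′ on the strand of the gene, 120 bases ending at the base before the start, with searched motifs in capitals.
Tyms (chr9:120776084-120776203, minus strand): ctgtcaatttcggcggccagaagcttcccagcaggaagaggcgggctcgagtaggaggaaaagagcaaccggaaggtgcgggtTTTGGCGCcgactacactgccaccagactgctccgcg
Pcna (chr3:139955821-139955940, minus strand): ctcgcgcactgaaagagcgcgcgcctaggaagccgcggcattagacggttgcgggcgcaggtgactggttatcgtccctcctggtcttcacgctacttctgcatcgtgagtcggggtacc
The Tyms window holds TTTGGCGC, letters of the kind bound by E2F factors, from position -37 counted from the start. The Pcna window holds none of the searched motifs, and further upstream the gene has ATTGG at -168, which is CCAAT on the other strand.

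Promoter entries of 250 bases before to 50 after the start existed for 29 of the 40 genes (Cdkn3 had 2 entries), and were missing for 11, Ccnd1 and E2f1 among them. Both strands were searched for 4 spellings of an E2F site (TTTCCCGC, TTTGGCGC, TTTCGCGC and TTTGCCGC), for CCAAT, and for TTTGAA, the cell cycle homology region. An E2F spelling was in 6 of 9 replication promoters (Mcm2, Mcm3, Mcm5, Mcm6, Mcm7 and Tyms), in 1 of 11 mitotic promoters (Cdk1) and in 0 of 4 G1/S promoters, beside 2.14% of all 33469 promoters in the table. In Mcm2, Mcm5 and Mcm6 matches on the 2 strands overlap, and in Mcm7 an E2F spelling shares a base with a CCAAT. The letters TTTGAA were in 7 of 11 mitotic and 1 of 9 replication promoters, beside 18.3% of all. CCAAT was in 8 of 11 mitotic, 6 of 9 replication and 2 of 4 G1/S promoters, beside 37.5%. These matches are letters in a window and were not measured as bound sites.

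Among the mitotic genes 4 of 7 tested were called higher (Cdk1, Aurka, Ccnb1 and Bub1), beside 39.2% of all genes tested. In each of the 7 the groups overlapped. Aurka, Ccnb1 and Bub1 were above background on no control array, a class in which 83.3% of all genes were called higher. Cdk1, the kinase that triggers mitosis, was above background in 2 control rats and every DEN/TAA rat. Its signal was 5.44, 6.76, 6.45, 6.04 and 7.49 in the control rats and 8.18, 7.92, 7.84, 7.05 and 8.04 in the DEN/TAA rats. Only control 5, not above background there, exceeded a DEN/TAA rat, rat 4. The difference was 1.37 (SE 0.35, limma adjusted p = 0.00575), and 1.00 to 1.95 within slides. It was 1.00 with undetected signals raised to the floor (limma adjusted p = 0.018), and turned to -0.10 with normexp.

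The promoters of Cdk1 and Ccnb1, the kinase and cyclin of the mitosis-promoting complex, are shown for their paired motifs, on GRCr8 and in the format used for Tyms.
Cdk1 (chr20:19265173-19265292, plus strand): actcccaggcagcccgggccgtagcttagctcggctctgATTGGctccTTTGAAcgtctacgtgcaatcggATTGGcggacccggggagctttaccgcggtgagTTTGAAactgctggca
Ccnb1 (chr2:33655226-33655345, minus strand): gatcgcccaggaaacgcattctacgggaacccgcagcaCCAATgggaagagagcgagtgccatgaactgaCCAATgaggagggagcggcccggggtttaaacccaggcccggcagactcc
Cdk1 has TTTGAA at -72 and -16 and ATTGG at -81 and -49 in this window. Ccnb1 has CCAAT at -82 and -50 and no TTTGAA. An E2F spelling of Cdk1, TTTCGCGC, lies further upstream at -133.

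Aurka, Ccnb1 and Bub1 were above background in every DEN/TAA rat and in no control rat. Aurora kinase A (Aurka), which acts at the spindle poles, was at 4.92, 4.08, 3.89, 4.24 and 5.76 in the control rats and 5.05, 5.93, 5.54, 5.82 and 5.90 in the DEN/TAA rats. Control 5 lay among the DEN/TAA values, and the other controls lay below them. The difference was 1.07 (SE 0.34, limma adjusted p = 0.018).

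Cyclin B1 (Ccnb1), the partner of Cdk1, was at 5.03, 4.83, 3.57, 4.42 and 5.75 in the control rats and 5.91, 6.16, 5.55, 5.02 and 5.93 in the DEN/TAA rats. DEN/TAA rat 4 lay among the controls and control 5 among the DEN/TAA rats. The difference was 0.99 (SE 0.36, limma adjusted p = 0.0342). Bub1, a kinase of the spindle checkpoint, was at 5.38, 4.96, 4.45, 5.20 and 5.70 in the control rats and 6.01, 6.00, 5.72, 5.15 and 6.29 in the DEN/TAA rats. Here too DEN/TAA rat 4 was the lowest of its group, and the difference was 0.70 (SE 0.26, limma adjusted p = 0.041).

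The call on these 3 genes rests on control signals below detection. Each DEN/TAA mean lay under the mean control floor (-0.81 for Ccnb1, -0.88 for Aurka and -0.69 for Bub1), so no fold is given. Leaving out a single rat ended the call for Ccnb1 and Bub1 in 7 of 10 cases each (control 2, 3 or 4, or DEN/TAA 1, 2, 3 or 5), with limma adjusted p up to 0.0798 and 0.0952. Normexp turned the difference to -0.75 for Ccnb1, -0.71 for Aurka and -0.89 for Bub1.

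Cdc20, the activator of the anaphase-promoting complex, was the one mitotic gene with a negative difference. It was above background in 4 control rats, at 7.28, 7.32, 7.76, 6.44 and 7.13 in the control rats and 6.88, 6.88, 6.93, 6.48 and 6.32 in the DEN/TAA rats. Control 4 lay within the DEN/TAA range and the other controls above it, a difference of -0.49 (SE 0.24, limma adjusted p = 0.0982). Without control 4 it was -0.68 and passed the test as lower (limma adjusted p = 0.0147), as it did with slide as a block (-0.62, limma adjusted p = 0.0194) and in 3 of 6 scalings, while with spike-in scaling it turned to 0.17.

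Plk1, the Polo-like kinase of mitotic entry, and Kif20a, a kinesin of cytokinesis, were not called, with differences of 0.80 (SE 0.32, limma adjusted p = 0.0518) and 0.68 (SE 0.30, limma adjusted p = 0.0693). Plk1 was above background in 1 control rat and Kif20a in none. With slide as a block Plk1 passed at 0.92 (limma adjusted p = 0.00558). It also passed when control 4, control 5 or DEN/TAA 2 was left out (limma adjusted p = 0.0436, 0.0226 and 0.0443), and Kif20a without control 1 or DEN/TAA 4 (0.0155 and 0.0412). Untested for lack of signal were Ccna2 (cyclin A2), Foxm1 (a transcription factor of mitotic genes) and Ube2c (a ubiquitin-conjugating enzyme of the anaphase-promoting complex), above background in 4 DEN/TAA rats each. Birc5 (survivin) was so in 2 DEN/TAA rats, and Ccnb2 (cyclin B2) and Aurkb (Aurora kinase B) on no array. None of these 6 was above background in a control rat.

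Of the 2 tested CDK inhibitors, Cdkn2a was called higher and Cdkn1b was not. Of all genes tested, 39.2% were called higher. Among those above background on no control array, as Cdkn2a was, it was 83.3%. Cdkn2a encodes p16INK4a, which blocks Cdk4 and Cdk6, and the p53 activator p19ARF from the same locus, and the probe was not assigned to either. It was above background in no control rat, at 4.68, 3.91, 3.98, 3.88 and 5.65, and in every DEN/TAA rat, at 7.25, 7.49, 7.96, 7.23 and 5.68. DEN/TAA rat 5 stood well below the other 4 and only just above control 5. The measured means were 4.42 and 7.12 (limma adjusted p = 0.000336), and 0.92 to 3.62 apart on the log2 scale within slides. Against the control floors, Cdkn2a was at least 1.51-fold higher in DEN/TAA livers as scaled here. Of the 5 DEN/TAA rats 1 lay above the floor of every control array. With undetected signals raised to the floor the difference was 0.60 and no longer passed (limma adjusted p = 0.305). With normexp it was 0.42 (limma adjusted p = 0.456).

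Cdkn1b encodes p27, an inhibitor of Cdk2. It was above background in every rat, at 7.58, 7.66, 7.87, 8.10 and 8.41 in the control rats and 8.16, 8.20, 8.25, 8.20 and 8.31 in the DEN/TAA rats. Control 5 was the highest of all 10, and the difference was 0.30 (SE 0.17, limma adjusted p = 0.157). The 2 probes of Cdkn1b disagree, since the other, dimmer one gave 0.96 (limma adjusted p = 0.0273 over all probes), and the mean of both gave 0.63 (limma adjusted p = 0.0113). Without control 5 the brighter probe gave 0.42 (limma adjusted p = 0.0301). Cdkn2b and Cdkn2c, the p15 and p18 inhibitors of Cdk4 and Cdk6, were above background on no array.

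By role, the median difference was 1.17 over the 6 tested G1/S genes, 1.87 over the 3 replication genes and 0.80 over the 7 mitotic genes, beside 0.33 over all genes tested. With normexp the 3 medians were -0.21, 0.39 and -0.73, beside -0.28. With undetected signals raised to the floor they were 0.21, 1.29 and -0.62, beside 0.11. The mitotic median thus lay below that of all genes in both. In the other scalings each role's median lay above that of all genes. These medians hold only genes that passed the detection filter, and the difference between roles was not tested. The comparison with 0.33 was not matched for detection in the controls. Undetected in every control rat were 8 of the 18 cell cycle genes, 4 of them mitotic, beside 683 of the 6855. For that class the median was 1.41 over the cell cycle genes and 1.55 over all genes. With detection in 1 or 2 controls it was 1.37 (3 genes) and 0.57, and in 3 or more 0.30 (7 genes) and 0.19. The groups were apart without overlap for 3 of 6 G1/S genes, 3 of 3 replication genes, 0 of 7 mitotic genes and 1 of 2 inhibitors, beside 1927 of the 6855 genes tested that were apart in the same direction. Control 5, the array with the fewest spots above background, was the highest control for 5 of the 7 mitotic genes. DEN/TAA rat 4 was the lowest of its group for 4 of the 7, with a mean over them of 5.97 beside 6.45 to 6.66 in the other DEN/TAA rats.

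Probes of these genes that were above background on no array read differently in the 2 groups. There were 16 such probes, from 14 genes, and all 16 had a lower mean in the DEN/TAA rats, by -1.60 to -0.45 on the log2 scale. Their median was 4.81, 4.03, 3.56, 4.06 and 5.71 in the control rats and 3.56, 3.53, 3.35, 3.40 and 3.15 in the DEN/TAA rats. These undetected probes thus read higher in the controls, with control 5 the highest. The lowest signal called above background lay at 5.59 to 7.77 on control arrays and at 4.56 to 5.35 on DEN/TAA arrays. Choosing probes called on no array therefore left more room for high readings in the controls. What part this choice has in the direction was not tested.

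The differences shifted with the scaling of the arrays. The median difference of all genes was 0.33 as scaled here, -0.28 with normexp, 0.18 with quantile normalization, 0.02 with the percentile taken over all probes, 0.99 with spike-in scaling and 0.08 in the authors' table. Of all genes called, 70.7% were higher as scaled here, 31.2% with normexp, 58.9% with quantile normalization, 50.3% with the percentile over all probes, 91.8% with spike-in scaling and 60.8% in the authors' table. Ccnd1 (1.34 to 2.83) and Pcna (0.72 to 2.14) were called higher in all 6. Relative to the median of all genes they were higher by 1.26 to 1.84 and by 0.64 to 1.15.

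Ccne1, E2f1, Mcm3, Tyms and Cdkn2a were called higher in 5 of the 6 scalings, the exception being normexp, where E2f1 and Mcm3 turned negative. Relative to the median of all genes they stood at 0.58 to 2.62 for Ccne1, 0.07 to 2.08 for E2f1, 0.09 to 2.34 for Mcm3, 0.55 to 1.67 for Tyms and 0.55 to 3.11 for Cdkn2a. Cdk1 and Aurka were called in 4, and Ccnb1 and Bub1 in 3, each negative with normexp. With normexp Bub1, Plk1 and Cdc20 were called lower (limma adjusted p = 0.0471, 0.0456 and 0.00824). With undetected signals raised to the floor, 5 of the 18 genes were called higher, Ccnd1, Ccne1, Pcna, Tyms and Cdk1. In that fit 27.2% of all genes were called higher, so the count lay near the share of all genes.

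**Figure D3:**
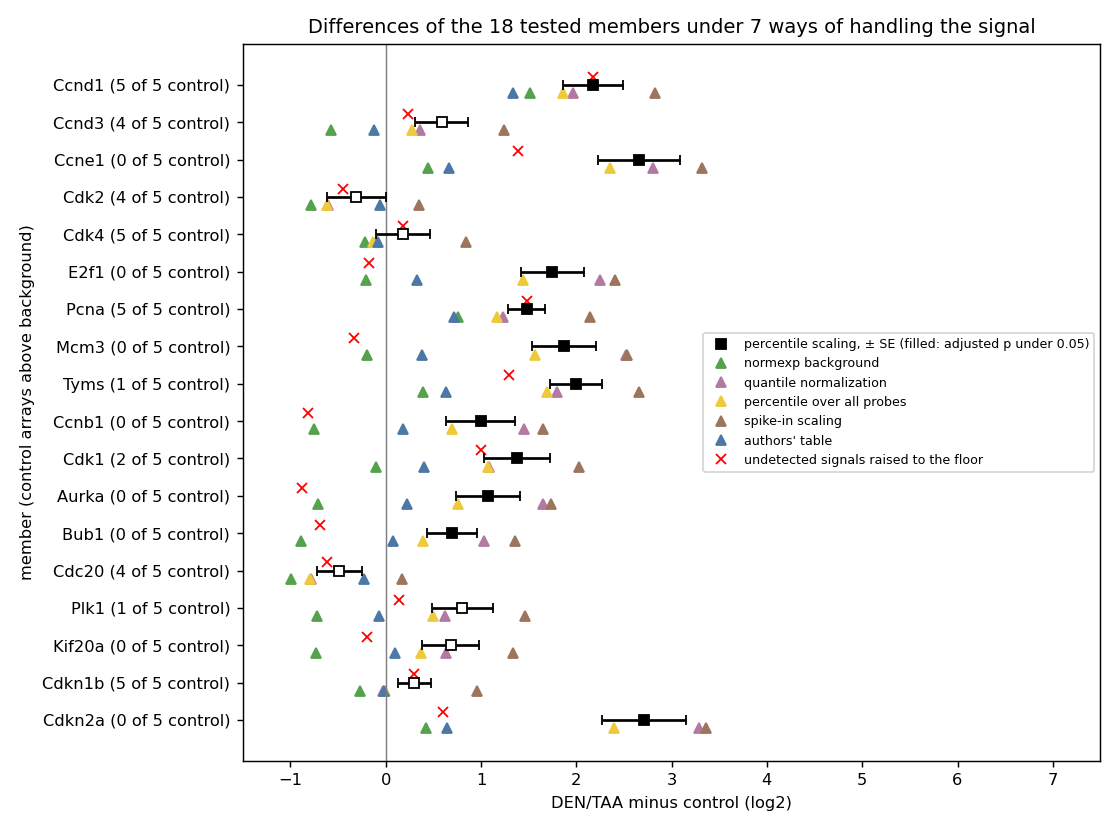
Difference in log2 signal, DEN/TAA minus control (5 rats each), of the 18 tested cell cycle genes: squares with the standard error are the percentile scaling used in the text (filled where the limma adjusted p is under 0.05), triangles are 5 other scalings, and crosses are the fit with undetected signals raised to the lowest detected signal. Ccnd1, Ccne1, Pcna, Tyms and Cdkn2a stay above 0 under every setting, while E2f1, Mcm3, Ccnb1, Cdk1, Aurka and Bub1 have normexp triangles below 0. Ccne1, Tyms and Cdkn2a were not called with normexp.

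Wider lists of the same machinery were counted in the same fit, though they too were chosen with earlier results of these data known. Of 15 tested G1/S regulators (23 with a probe, 29 listed), 7 rose and 1 fell, with a median of 0.33, beside 39.2% higher and 16.3% lower and the same median over all genes. This is near the background. Over the 6 scalings 3 to 10 rose and 0 to 4 fell. Myc, a transcription factor that drives growth, rose by 2.30 (SE 0.28), the p53 targets Cdkn1a (p21) by 1.88 (SE 0.43) and Ccng1 by 1.77 (SE 0.20), Mnat1, of the CDK-activating kinase, by 0.87 (SE 0.17), and the E2F partner Tfdp1 by 0.77 (SE 0.15). The antiproliferative gene Btg1 fell by 0.85 (SE 0.25). Limma adjusted p ran from 2.69e-05 for Ccng1 to 0.0122 for Btg1, and all 6 were above background in every rat. Myc, Cdkn1a and Ccng1 were called higher in all 6 scalings.

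Of 22 tested replication genes (41 with a probe, 45 listed), 12 rose and 2 fell, with a median of 0.63, beside 39.2% higher and 16.3% lower over all genes. With normexp 5 fell and no call was higher, with a median of -0.15, beside 12.9% higher and 28.4% lower over all genes. In the other scalings 8 to 19 rose and 0 to 2 fell, beside 23.6% to 64.8% and 5.78% to 23.3% of all genes. The clamp loader subunit Rfc3 rose by 1.22 (SE 0.12, limma adjusted p = 9.88e-06) and DNA ligase Lig1 by 1.03 (SE 0.15, limma adjusted p = 0.000121), both above background in 4 control rats. The chromatin assembly gene Chaf1b and the polymerase delta subunit Pold2 were above background in no control rat. As scaled here they were at least 1.29-fold and at least 1.12-fold higher. Over the 6 scalings their lowest differences were 0.33 and -0.48, the latter with normexp. The largest clamp loader subunit Rfc1 fell by 0.41 (SE 0.13, limma adjusted p = 0.019), and was called lower in 5 of the 6 scalings and turned to 0.25 with spike-in scaling.

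Of 12 tested mitotic genes (37 with a probe, 51 listed), 9 rose and 0 fell by limma (0 also at an unadjusted p under 0.05), with a median of 1.08, and with normexp 3 rose and 1 fell, with a median of -0.31. In the other scalings 4 to 12 rose and 0 to 1 fell. The share of all genes called higher was 39.2% as scaled here, 12.9% with normexp and 23.6% to 64.8% in the others. No control array showed 6 of these 12 above background, and they passed the filter through the DEN/TAA arrays, a class in which 83.3% of all genes were called higher. Wee1, the kinase that restrains Cdk1, was above background in no control rat and at least 3.09-fold higher as scaled here. Its difference ran from 0.72 to 3.12 over the 6 scalings. The microtubule genes Tubb5 and Stmn1 rose by 1.72 (SE 0.20) and 2.46 (SE 0.33), Tubb5 being above background in every rat and Stmn1 in 2 control rats. Incenp, of the chromosomal passenger complex, passed as higher by 1.66 (SE 0.35), with a DEN/TAA mean under the mean control floor and a difference of -0.26 with normexp. Most listed mitotic genes, 25 of the 37 with a probe, were too dim to be tested.

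**Figure D4:**
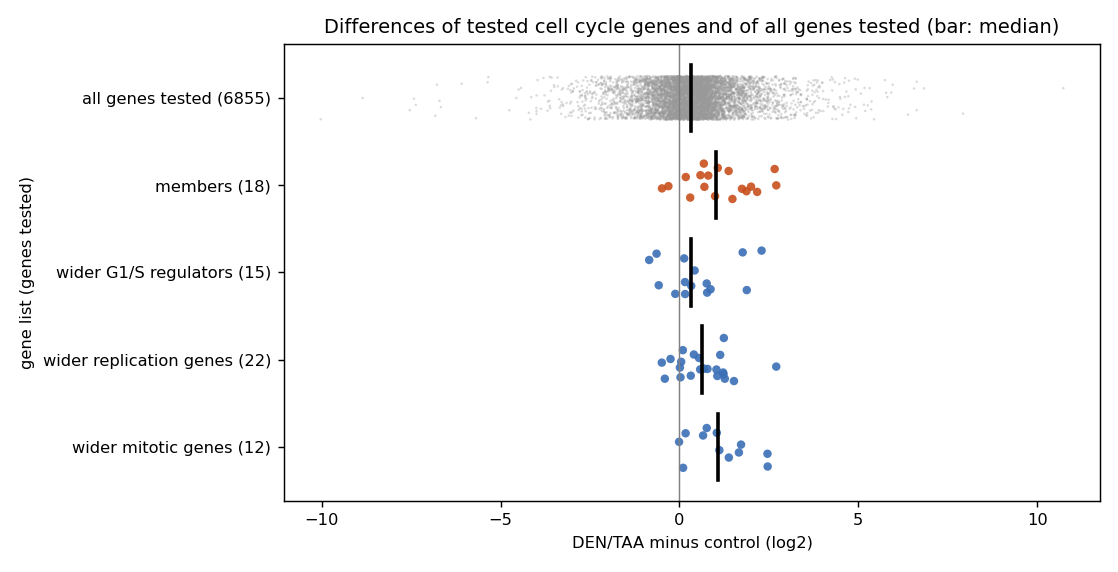
Difference in log2 signal, DEN/TAA minus control (5 rats each), of each tested gene, for all 6855 genes, the 18 cell cycle genes and the 3 wider lists; a point is a gene, its height within a band is spread only for legibility, and the bar is the median. The medians of the wider G1/S, replication and mitotic lists lie at 0.33, 0.63 and 1.08, beside 0.33 for all genes, and at -0.28, -0.15 and -0.31 with normexp, beside -0.28 for all genes.

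Signals of cell type markers were measured in the same livers, where fewer cells of a type and less marker RNA per cell cannot be told apart. For the liver label, 7 of 7 hepatocyte markers were above background on every array, with a summed level (log2) of 20.19 to 20.81 in control rats and 19.13 to 19.45 in DEN/TAA rats. The counts depended on the scaling. Of the 7 hepatocyte markers 0 were higher and 6 lower as scaled here (median difference -0.92), beside 39.2% and 16.3% of all genes. The counts were the same with normexp (-0.87) and with the percentile over all probes (-1.23). They were 1 and 2 with quantile normalization (0.12) and with spike-in scaling (-0.26), and 2 and 3 in the authors' table (-0.15). Apoc3 and Ttr were called lower in all 6 scalings, while Apoa1 was called higher in 3.

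Biliary and progenitor markers summed to 9.02 to 9.56 and 11.88 to 12.39 (1 to 2 against 5 of 5 named markers above background), macrophage markers to 13.18 to 13.77 and 14.85 to 15.32 (5 to 6 against 9 to 10 of 10), and stellate cell markers to 10.77 to 11.05 and 13.55 to 14.03 (3 to 7 against 7 of 7). Single markers differed from these sums. Of 9 tested macrophage markers 8 were called higher and 1 lower, beside 39.2% and 16.3% of all genes. The lower one was Cd14 (-1.16, limma adjusted p = 0.000259), without overlap, and it was called lower in 5 of the 6 scalings. Of 7 tested stellate cell markers 6 were called higher, beside the same 39.2% of all genes, and Lrat was not (0.44, limma adjusted p = 0.0888). Lymphocyte markers summed to 7.27 to 8.86 and 8.50 to 8.92, which overlap, with 0 of 8 above background in control rats and 3 to 4 of 8 in DEN/TAA rats. The 3 tested lymphocyte markers were called higher by limma as scaled here, and lost the call with normexp (median difference -0.28). All 3 were above background on no control array, a class in which 83.3% of all genes were called higher. Endothelial markers overlapped as a sum (11.66 to 12.70 and 12.16 to 12.55). Of the 4 tested, Kdr differed by -0.06 and 3 were called higher with no overlap, Oit3 by 1.80, Esam by 1.46 and Lyve1 by 1.20 (1 of 4 with normexp). Of all 6855 genes tested, 39.2% were called higher and 1927 were apart without overlap in that direction. Of 5 pancreatic and fat cell markers at most 1 was above background. The part of these cell types in the differences of cell cycle genes was not tested.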

How the data were processed

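Liver RNA of 10 rats was measured on 3 slides of Agilent rat arrays. The deposited scanner files hold spot intensity, with a background-subtracted processed signal, from Agilent Feature Extraction (version 11.5.1.1 in the headers, 15.5 in the submitters' processing notes). The authors' deposited table of log2 values had the rank order of the median spot signal in every array (rho = 1). It was used as an alternative, and the steps behind it are not given in the sources used here. The replicate numbers come from the labels, which describe the treated ones as animals, so p-values measure the spread between these rats.

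Control and outlier-flagged spots were left out. Log2 processed signals were averaged per probe, and each array's 75th percentile over the probes well above background on all 10 arrays was subtracted. The mean of the 10 percentiles was added back. Of 41012 probes 17502 had 1 gene symbol, 0 several and 23510 none, through RefSeq accessions of GRCr8. The array was annotated on another build, so coordinates are given for RefSeq promoters alone. Probes above background on 5 or more arrays were kept, and a gene was its brightest kept probe. All 10 arrays were fitted without covariates by limma 3.58.1 (R 4.3.3), tested on simulated data beforehand. Its two-sided moderated p-values were adjusted over 6855 genes after Benjamini and Hochberg, with a threshold of 0.05. A gene above background on no control array is given as at least N-fold, or without a fold where the DEN/TAA mean lies under the control floors. Such a bound applies to the scaling used here alone. Summed marker levels include undetected signals. The number of arrays and their signal over background limit the precision.

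The genes, roles and lists were chosen with earlier results of these data known. Per-rat values are given for up to 4 genes of a role by adjusted p, for genes against their role's direction, and for Ccnd1, Cdk1, Pcna and E2f1. Top2a was to be given too, but had no probe named here. From each wider list up to 4 genes in a direction are named. Of these, 1 is not reported here. Cdk4, Ccnd2, Tk1, Cdkn1a and other genes with values outside that rule were chosen after their values were seen. Alternatives covered background correction, normalization, filters, probes of a gene, slide and replicate blocks, undetected signals and leaving out rats. The files hold no mean spot signal, so normexp (offset 50) used the median signal. Alternative results are reported with the closing remarks on processing.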

Additional observations from a re-analysis of the deposited data

Results flagged for a closer look

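Of 36 groups of 5 rats (the 18 tested genes in each group), 1 held a rat far from the other 4, and chance alone marks about 5% of groups. Ccne1, the gene of cyclin E1, read 3.41 in control rat 3, beside 5.45 to 6.27 in the other control rats. The gap took up 0.711 of the group's range, beside a critical value of 0.71. The signal was not above background in any of these 5 rats, and without control rat 3 the higher call of Ccne1 in DEN/TAA livers held.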

How the results depend on the processing

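Of the 18 tested genes, Ccnd1 and Pcna were called higher under every alternative fitted to them. Of the 11 genes called higher, 9 kept the call with each rat left out in turn, and Ccnb1 and Bub1 lost it in 7 of 10 cases. Leaving out a rat gave 9 to 13 cell cycle genes higher and 0 to 1 lower, 3 to 4 of G1/S, 3 to 3 of replication and 2 to 5 mitotic, and 2344 to 2690 genes of all tested higher and 988 to 1143 lower. As main counts, 11 cell cycle genes were higher and 0 lower (3 G1/S, 3 replication, 4 mitotic), beside 2689 and 1116 of all genes.

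Normexp gave 2 cell cycle genes higher and 3 lower (1 G1/S, 1 replication, 0 mitotic higher), beside 883 higher and 1950 lower of all genes. Quantile normalization gave 1 lower. The percentile over all probes gave 1 lower and 1 mitotic higher, beside 1617 of all genes higher. Spike-in scaling gave 4443 of all genes higher and 396 lower, and the values of the authors 2 mitotic higher. With no filter 1 was lower and 5 G1/S genes were higher, beside 2594 higher and 5801 lower of all 13832 genes. The one lower was Aurkb, above background on no array (-1.43). A filter on all 10 arrays left 4 of the genes, of which 2 were higher (1 G1/S, 1 replication, 0 mitotic), beside 1154 of all genes. Raising undetected signals to the floor gave 5 higher, 1 of them mitotic, beside 1867 of all 6855 genes. The slide block gave 1 lower, and the replicate block 1 lower and 13 higher. Same-numbered rats deviated together with r of 0.09, 0.10, 0.20, -0.22 and 0.11, and 3 of 5 matched their own number best, so the numbers were not taken as pairs.

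Single differences changed sign as follows, with the cause not tested. With normexp Ccnd3 was at -0.57, Cdk4 at -0.22, E2f1 at -0.21, Mcm3 at -0.20, Ccnb1 at -0.75, Cdk1 at -0.10, Aurka at -0.71, Bub1 at -0.89, Plk1 at -0.72, Kif20a at -0.73 and Cdkn1b at -0.27. Quantile normalization gave -0.092 for Cdk4 and -0.026 for Cdkn1b, the percentile over all probes -0.13 and -0.007, and spike-in scaling 0.35 for Cdk2 and 0.17 for Cdc20. The authors' table gave -0.12 for Ccnd3, -0.084 for Cdk4, -0.066 for Plk1 and -0.021 for Cdkn1b. The floor gave -0.18 for E2f1, -0.33 for Mcm3, -0.81 for Ccnb1, -0.88 for Aurka, -0.69 for Bub1 and -0.20 for Kif20a. Leaving out each rat moved Cdk4 between -0.015 (without control 5) and 0.39. Within slides no called gene changed sign. Dim control arrays limit the genes above background in no control rat, whose size is known at best as a bound.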
